A study of Homo sapiens with 12 samples.

Results

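Fc receptors are the proteins through which myeloid cells take hold of the constant part of antibodies. The 7 genes FCAR, FCGR1A, FCGR2A, FCGR2B, FCGR3A, FCER1G and FCGRT were taken by their gene symbols from 20003 genes, and all 7 were present in every sample. Messenger RNA was sequenced in 12 samples of a pair of leukemia cell lines: NB4, from acute promyelocytic leukemia (APL), which carries PML-RARα, and Kasumi-1, from acute myeloid leukemia of subtype M2, which carries AML1-ETO. Each cell line had 3 control samples with DMSO, the solvent, and 3 samples incubated with OGP46 at 1 μM, all for 48 h by the sample labels. OGP46 is the compound that the study tested for an effect on the differentiation of these cells. Both are established lines grown in culture, so each line stands for 1 leukemia, and the cell line and any batch in which it was prepared cannot be told apart.

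The receptors differ in the antibody class they bind and in the signal they pass on. FCGR1A encodes CD64, which binds single IgG molecules with high affinity, FCGR2A (CD32A) and FCGR3A (CD16A) bind IgG in complexes, and FCAR (CD89) binds IgA. FCER1G encodes the common gamma chain, a short adaptor with an ITAM, the tyrosine motif that recruits the kinase SYK, and CD64, CD16A and CD89 need it to signal. FCGR2A carries such a motif in its own tail, whereas FCGR2B (CD32B) carries an inhibitory one, and FCGRT encodes the heavy chain of FcRn, which sits in endosomes, pairs with beta-2 microglobulin (B2M) and returns IgG and albumin to the surface. CD64 is present on monocytes and early myeloid cells, while CD16 marks later stages, natural killer cells and some monocytes.

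In GENCODE release 29 (GRCh38), all 7 are protein coding genes. FCER1G (chr1:161215234-161220699), FCGR2A (chr1:161505430-161524013), FCGR3A (chr1:161541759-161550737) and FCGR2B (chr1:161663147-161678654) lie together on the long arm of chromosome 1, and with FCGR2C and FCGR3B they span 463.4 kb. FCGR1A lies apart on the same chromosome (chr1:149782671-149792518), and FCAR (chr19:54874248-54890472) and FCGRT (chr19:49506816-49526333) are on chromosome 19. FCGR3A is on the minus strand and the other 6 genes are on the plus strand.

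The promoter table of RefSeq (GRCh38.p14) held 6 of the 7 genes. The 250 bases before the transcription start are shown for the genes with the highest levels in these cells, FCER1G and FCGRT, and for FCGR1A and FCGR2A, which hold the same stretch near their starts. All 4 windows are on the plus strand and are written 5′ to 3′, at chr1:161215045-161215294 for FCER1G, chr19:49512411-49512660 for FCGRT, chr1:149782444-149782693 for FCGR1A and chr1:161505207-161505456 for FCGR2A. The starts are those of RefSeq and differ from the GENCODE starts given above, past which all 4 windows reach. The FCGRT window lies wholly inside the gene as GENCODE places it. Capitals mark matches to any of 6 motifs of myeloid and general promoter factors, searched on both strands.
FCER1G: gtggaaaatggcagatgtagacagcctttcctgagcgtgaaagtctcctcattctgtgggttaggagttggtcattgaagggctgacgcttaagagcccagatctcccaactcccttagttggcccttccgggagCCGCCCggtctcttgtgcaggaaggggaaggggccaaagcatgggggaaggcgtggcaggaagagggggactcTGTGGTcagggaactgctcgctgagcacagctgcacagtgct
FCGRT: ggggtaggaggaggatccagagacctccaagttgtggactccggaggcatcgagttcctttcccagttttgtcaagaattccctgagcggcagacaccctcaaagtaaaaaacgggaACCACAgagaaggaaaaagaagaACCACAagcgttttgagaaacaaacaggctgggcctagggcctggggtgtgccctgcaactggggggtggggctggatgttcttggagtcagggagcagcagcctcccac
FCGR1A: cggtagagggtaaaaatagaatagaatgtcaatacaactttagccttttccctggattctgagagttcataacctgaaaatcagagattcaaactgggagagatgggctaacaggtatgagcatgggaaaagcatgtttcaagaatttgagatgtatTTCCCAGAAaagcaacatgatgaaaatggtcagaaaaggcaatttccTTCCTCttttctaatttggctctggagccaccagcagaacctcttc
FCGR2A: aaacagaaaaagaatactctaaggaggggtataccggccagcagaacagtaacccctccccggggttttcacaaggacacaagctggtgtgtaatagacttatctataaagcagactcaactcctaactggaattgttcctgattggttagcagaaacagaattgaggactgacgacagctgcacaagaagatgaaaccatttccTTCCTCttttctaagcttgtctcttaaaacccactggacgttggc

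The motifs were the PU.1 box GAGGAA, the interferon-gamma activated (GAS) element TTCNNNGAA, the RUNX motif TGTGGT, the GC box GGGCGG, the C/EBP motif TTGCNNAA and the retinoid receptor motif AGGTCA, and no matches overlapped in these windows. FCGR1A and FCGR2A shared a run of 20 bases, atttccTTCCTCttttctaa, which ended 33 bases before the start in FCGR1A and 32 bases before it in FCGR2A. It holds a PU.1 box on the minus strand, a motif found in 23.6% of the 35116 windows of the table. FCGR1A also held a GAS element 93 to 85 bases before the start, as did 6.57% of all windows. FCER1G held a RUNX motif 42 to 37 bases before the start and a GC box further up, and FCGRT held 2 RUNX motifs on the minus strand. The RUNX motif was in 10.98% and the GC box in 42.6% of all windows. AML1, also called RUNX1, binds the RUNX motif and is a part of the fusion protein of Kasumi-1, but the matches are a description of the letters and binding was not measured here.

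Expression is given as FPKM, fragments scaled by transcript length and by the mapped total, so that levels can be compared between genes per length. Summed over genes, a sample held 248207 to 310262 FPKM, 9339 to 9746 genes reached 1 FPKM, and the number of reads behind the values is unknown. The fusion partner gene RUNX1T1 (ETO) averaged 8.52 ± 0.183 FPKM in untreated Kasumi-1 (SD, n = 3) and 0.0359 ± 0.0383 in untreated NB4, and CD34 averaged 97.4 ± 3.61 and 0.509 ± 0.698 FPKM, as the labels have it. In 1 sample, NB4 control 3, CD34 reached 1.35% and RUNX1T1 0.895% of the mean in the Kasumi-1 controls, against at most 0.370% in the other 5 NB4 samples. In Kasumi-1 control 2, the NB4 genes LAT2, MMP9 and PRG2 stood at 1.21%, 1.76% and 1.75% of the mean of the NB4 controls. Without either sample, the counts of the 6 tested genes called stayed at 0 with OGP46 in both lines and at 2 higher and 2 lower between the lines, in limma without the block. Control and OGP46 samples with the same number deviated together within each cell line. Their correlation across genes was 0.197 to 0.622 in NB4 and 0.157 to 0.395 in Kasumi-1. The highest correlation with another number was lower each time, but only slightly for number 3 of NB4 (0.175 against 0.197). For numbers 1 and 2 of NB4 it was 0.224 and −0.34, and in Kasumi-1 it was 0.101, 0.0275 and −0.217. Under a stricter filter of 5 FPKM, number 3 of NB4 had 0.439 against 0.224. Results are therefore also given with the replicate number as a block.

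**Figure D1:**
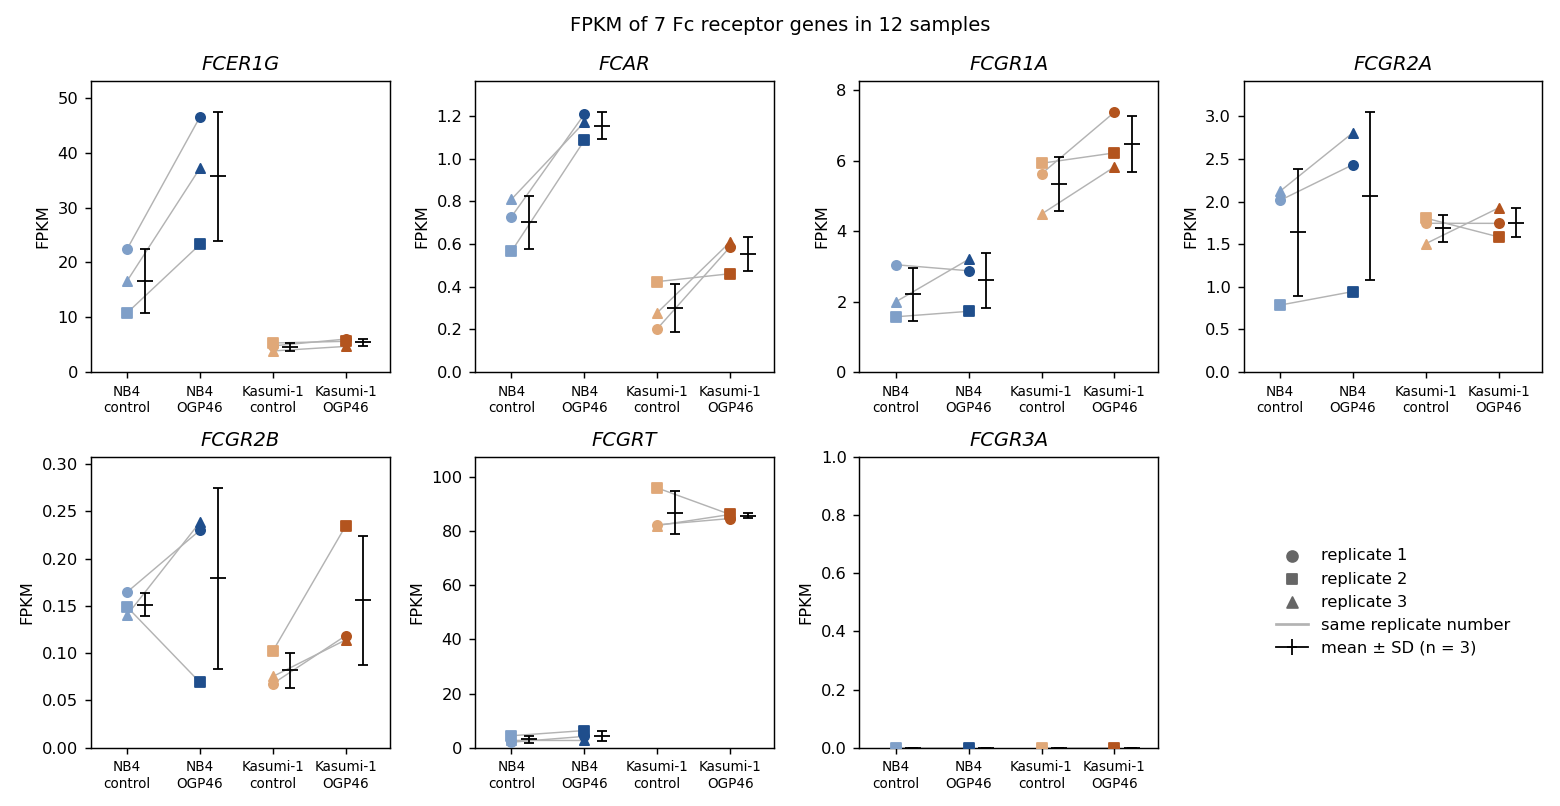
FPKM (y axis, linear from 0, scaled per panel) of the 7 genes in the 4 groups (x axis). Each point is a sample, its shape gives the replicate number, grey lines join samples of the same number, and bars are mean ± SD (n = 3). FCER1G was higher with OGP46 in each NB4 pair (ratios 2.07, 2.16 and 2.24), FCGRT was high only in Kasumi-1 among these groups, and FCGR3A was at 0 throughout.

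A gene was called higher or lower in a limma test of log2(FPKM + 0.1) at an adjusted p below 0.05 and a log2 difference of at least 0.58, which is 1.49-fold. FCGR3A did not reach the minimum mean of 0.1 FPKM, so that 6 of the 7 genes were tested. In NB4 cells with OGP46, none of the 6 was called without the block, where 1.45% of 11750 genes were called higher and 0.111% lower, and at an unadjusted p FCER1G and FCAR passed the same limits (4.49% of all genes). With the replicate block, FCER1G and FCAR were called higher, against 5.06% of all genes higher and 1.15% lower. With the block and pair 3 left out, so that 2 pairs remained, FCER1G, FCAR and FCGRT were called higher, against 4.52% of all genes. In Kasumi-1 cells, none was called without the block (0.0169% of 11835 genes called in each direction) or with it (0.270% higher and 0.346% lower), and with pair 2 left out FCAR was called with the block (0.584% of all genes higher), and without the block 1 gene, FCAR, passed at an unadjusted p (0.642% of all genes). Between the untreated lines, FCER1G and FCAR were called higher in NB4 (22.7% of 12302 genes, without and with the block) and FCGR1A and FCGRT were called higher in Kasumi-1 (29.7%, and 29.9% with the block). The samples of the untreated lines did not overlap for 3 of the 6 genes higher in NB4 (34.6% of all genes) and 2 higher in Kasumi-1 (43.1%). All genes tested had a median log2 difference of 0.18 in NB4 and 0.05 in Kasumi-1 with OGP46, and median centring of the samples moved these to −0.04 and −0.02.

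FCER1G, the common gamma chain, was the most abundant of the 7 genes in NB4. It stood at 22.5, 10.8 and 16.6 FPKM in NB4 controls 1, 2 and 3, and at 46.6, 23.3 and 37.2 FPKM in the OGP46 samples 1, 2 and 3. The groups did not overlap, as held for 32.7% of all genes in this direction, but the lowest OGP46 value was close to the highest control, and replicate 2 was the lowest in both groups. The ratio of OGP46 to control was 2.07, 2.16 and 2.24 in the same-numbered pairs. The log2 difference was 1.10 ± 0.30 (SE, 95% confidence interval 0.41 to 1.79, adjusted p = 0.0776 by limma), or 0.92 above the median of all genes. With the block the SE was 0.08 and the adjusted p from limma 1.1e-05, and with the block it was called without pair 3 as well (log2 difference 1.08). Over 20 alternatives the adjusted p ranged from 2.2e-10, with pair 3 left out of the block fit, to 0.27. Without OGP46 sample 2 of NB4, FCER1G was called without the block (log2 difference 1.38, adjusted p = 0.032 by limma).

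In Kasumi-1 cells FCER1G was lower. It stood at 4.77, 5.30 and 3.85 FPKM in the controls and at 6.02, 5.61 and 4.68 FPKM with OGP46, and these groups overlapped. The log2 difference was 0.23 ± 0.13 (SE, 95% confidence interval −0.06 to 0.52), with an adjusted p of 0.419 in limma without the block and 0.124 with it. All 3 same-numbered pairs were higher with OGP46, by ratios of 1.06 to 1.26. The OGP46 effect on FCER1G differed between the lines by 0.87 ± 0.37 on the log2 scale (adjusted p = 0.427 by limma). With the block this interaction had an adjusted p of 0.0061 in limma and was called, against 1.81% of 12309 genes called in this direction and 0.114% in the other, and its adjusted p ranged from 0.0061 to 0.809 over 26 alternatives. With pair 3 of NB4 left out of the block fit the interaction was 0.85 (adjusted p = 0.023 by limma, 0.699% of all genes called), and with pair 2 of Kasumi-1 left out 0.80 (adjusted p = 0.0306, 0.162% of all genes). None of the 6 genes had an interaction called without the block (0% of all genes in each direction), where FCER1G alone passed an unadjusted p (9.95% of all genes passed in this direction).

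Before treatment, FCER1G was 3.59-fold higher in NB4 than in Kasumi-1 (log2 difference 1.77 ± 0.24, adjusted p = 1.3e-04 by limma). The samples did not overlap, as held for 34.6% of all genes in this direction. With OGP46 the ratio of the means was 6.57. Without NB4 control 3 the log2 difference between the untreated lines was 1.74.

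FCAR, the IgA receptor, was low in both lines. It stood at 0.728, 0.565 and 0.809 FPKM in the NB4 controls and at 1.21, 1.09 and 1.17 FPKM in NB4 cells with OGP46. Every OGP46 sample lay above every control, as held for 32.7% of all genes, and the ratio of the means was 1.65. The log2 difference was 0.66 ± 0.17 (adjusted p = 0.0702 by limma), and with the block the adjusted p was 0.0119, so that FCAR was called. Over 19 alternatives the adjusted p from limma lay between 0.0063, with the block and without pair 3 (log2 difference 0.75), and 0.257. With the block and median centring the log2 difference was 0.44 (adjusted p = 0.0885 by limma) and FCAR was not called.

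In Kasumi-1 cells, FCAR stood at 0.203, 0.424 and 0.278 FPKM in the controls and at 0.586, 0.461 and 0.609 FPKM with OGP46. These groups did not overlap either, as held for 17.4% of all genes in this direction, although control 2 came close to OGP46 sample 2. The log2 difference of 0.73 ± 0.23 was of the size seen in NB4 but had an adjusted p of 0.184 in limma, and 0.101 with the block. Pair 2 had the lowest ratio of OGP46 to control (1.09, against 2.89 and 2.19 in pairs 1 and 3). It was left out after seeing the data. Without it, the log2 difference with the block was 1.04 (adjusted p = 0.0375 by limma) and FCAR was called. Its control is the sample where LAT2, MMP9 and PRG2 stood at 1.21% to 1.76% of their NB4 control means. The NB4 control mean of FCAR was 0.701 FPKM, and the part of NB4 signal in the FCAR value of this sample was not tested. The 2 effects differed by −0.07 ± 0.28 on the log2 scale (95% confidence interval −0.68 to 0.54). FCAR was 2.33-fold higher in the NB4 controls than in the Kasumi-1 controls (log2 difference 1.02 ± 0.23, adjusted p = 0.0034 by limma), and with a pseudocount of 1 in place of 0.1 this difference was 0.39 and below the fold limit.

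FCGR1A, the high affinity IgG receptor, had the highest mean of the antibody-binding surface receptors among the 7 genes in both lines. It stood at 5.62, 5.92 and 4.48 FPKM in the Kasumi-1 controls and at 3.04, 1.57 and 1.99 FPKM in the NB4 controls. The lines did not overlap, as held for 43.1% of all genes in this direction. The mean was 2.43-fold higher in Kasumi-1 (log2 difference NB4 minus Kasumi-1 −1.28 ± 0.22, adjusted p = 6.1e-04 by limma). With OGP46 it stood at 7.37, 6.22 and 5.82 FPKM in Kasumi-1 and at 2.87, 1.72 and 3.20 FPKM in NB4. Within each line the OGP46 and control samples overlapped, and 3 of 3 pairs were higher with OGP46 in Kasumi-1 and 2 of 3 in NB4. The log2 differences were 0.27 ± 0.12 in Kasumi-1 (adjusted p = 0.314 by limma, 0.0909 with the block) and 0.23 ± 0.28 in NB4 (adjusted p = 0.588 by limma, 0.237 with the block).

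FCGR1A shares much of its sequence with FCGR1B, a copy of the gene. Of the 75-base windows of its longest coding transcript, 38.8% also occurred in transcripts of other genes, 28.9% in FCGR1B, so that the split of fragments between these genes is uncertain. FCGR1B stood at 0.804, 0.841 and 1.03 FPKM in the Kasumi-1 controls and at 1.72, 1.42 and 1.58 FPKM with OGP46. These groups did not overlap, as held for 17.4% of all genes in this direction. With the block FCGR1B was called higher (log2 difference 0.75 ± 0.13, adjusted p = 0.0185 by limma), whereas without it the adjusted p was 0.0738. The sum of FCGR1A and FCGR1B had a log2 difference of 0.36 in Kasumi-1 (adjusted p = 0.155 by limma, 0.0408 with the block), below the limit of 0.58.

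FCGR2A, the activating receptor with its own ITAM, had a like level in both lines. It stood at 2.01, 0.786 and 2.12 FPKM in the NB4 controls and at 2.43, 0.945 and 2.81 FPKM with OGP46. Replicate 2 of NB4 was the lowest in both groups, and each pair was higher with OGP46 by ratios of 1.20 to 1.32. The log2 difference was 0.30 ± 0.45 (95% confidence interval −0.74 to 1.34, adjusted p = 0.676 by limma) and 0.0957 with the block as adjusted p. In Kasumi-1 it lay between 1.51 and 1.93 FPKM in all 6 samples (log2 difference 0.05 ± 0.12, adjusted p = 0.867 by limma). The untreated lines differed by −0.15 ± 0.32 (adjusted p = 0.685 by limma), a sign that TPM-like scaling and quantile normalization turned.

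FCGR2B, the inhibitory receptor, lay between 0.0678 and 0.239 FPKM in the 12 samples, near the pseudocount. In Kasumi-1 it stood at 0.0678, 0.102 and 0.0753 FPKM in the controls and at 0.119, 0.235 and 0.114 FPKM with OGP46. These groups did not overlap, as held for 17.4% of all genes in this direction. The log2 difference of 0.47 ± 0.28 was not called (adjusted p = 0.447 by limma, 0.334 with the block). The NB4 controls were higher than the Kasumi-1 controls by 0.47 ± 0.19 on the log2 scale (adjusted p = 0.0528 by limma). Both differences depended on the pseudocount: with 1 in place of 0.1 each was 0.09, with 0.01 they were 0.80 in Kasumi-1 and 0.83 between the lines, and neither was called. Between the lines the gene was called under TPM-like scaling, median centring and quantile normalization (0.58 to 0.67). Of its 75-base windows, 31.3% occurred elsewhere, 30.1% in FCGR2C, a gene not analysed here, and 18.1% of those of FCGR2A. The ratio of FCGR2A to FCGR2B was 10.9 ± 5.06 and 12.0 ± 1.57 in NB4 control and OGP46 samples and 21.1 ± 4.17 and 12.8 ± 5.34 in those of Kasumi-1.

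FCGR3A, the CD16A chain, was listed at 0 FPKM in all 12 samples. The nearly identical FCGR3B, the CD16B gene of neutrophils, was listed at 0 in all 12 as well, and 17.3% of the FCGR3A windows occur in it. Of 20003 genes, 3985 were at 0 in every sample. Among 77 ribosomal protein genes, which every cell uses, 2 were at 0 in any sample, both of them forms expressed mainly in other tissues (RPL3L and RPL10L). Of 10 mature neutrophil markers, 5 were at 0 in all NB4 controls and 4 in all Kasumi-1 controls, and LCN2 and CEACAM8 were at 0 in all 12 samples.

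FCGRT, the FcRn heavy chain, showed the largest difference between the lines among the 7 genes. It stood at 82.3, 95.9 and 82.0 FPKM in the Kasumi-1 controls and at 2.05, 4.42 and 2.71 FPKM in the NB4 controls. Each Kasumi-1 sample lay far above each NB4 sample, 28.4-fold in the means (log2 difference NB4 minus Kasumi-1 −4.85 ± 0.23, adjusted p = 2.0e-07 by limma). The controls of 43.1% of all genes did not overlap in this direction. For NB4 control 3, the Kasumi-1 mean of FCGRT multiplied by its CD34 share of 1.35% comes to 1.17 FPKM of its 2.71 FPKM, and without this sample the difference was −4.80.

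OGP46 left FCGRT in Kasumi-1 at 84.6, 86.1 and 86.1 FPKM. The log2 difference was −0.01 ± 0.07 (95% confidence interval −0.17 to 0.14, adjusted p = 0.94 by limma). In NB4 it stood at 4.19, 6.34 and 2.68 FPKM with OGP46, which overlapped the controls, and 2 of 3 pairs were higher. The log2 difference in NB4 was 0.50 ± 0.34 (adjusted p = 0.347 by limma), and with the block the adjusted p was 0.0413, below the fold limit, while without control 3 the value was 0.45. With the block and without pair 3 it was 0.75 (adjusted p = 6.7e-05 by limma), and FCGRT was called. The second sample of both NB4 groups was the highest in FCGRT and the lowest in FCER1G, FCGR1A and FCGR2A. With OGP46, FCGRT was 19.5-fold higher in Kasumi-1 than in NB4.

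In each group, the 7 genes took a clear order at the ends. In NB4 controls FCER1G (16.6 ± 5.82 FPKM) was first and its samples lay apart from those of FCGRT (3.06 ± 1.23), whereas FCGRT, FCGR1A (2.20), FCGR2A (1.64) and FCAR (0.701) overlapped with their neighbours. With OGP46 the order was the same, with FCER1G at 35.7 ± 11.7 FPKM. In Kasumi-1 controls FCGRT (86.7 ± 7.95 FPKM) was first, FCGR1A (5.34) and FCER1G (4.64) overlapped, and FCGR2A (1.69), FCAR (0.301) and FCGR2B (0.0818) followed, each apart from the next. The order in Kasumi-1 was the same with OGP46.

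**Figure D2:**
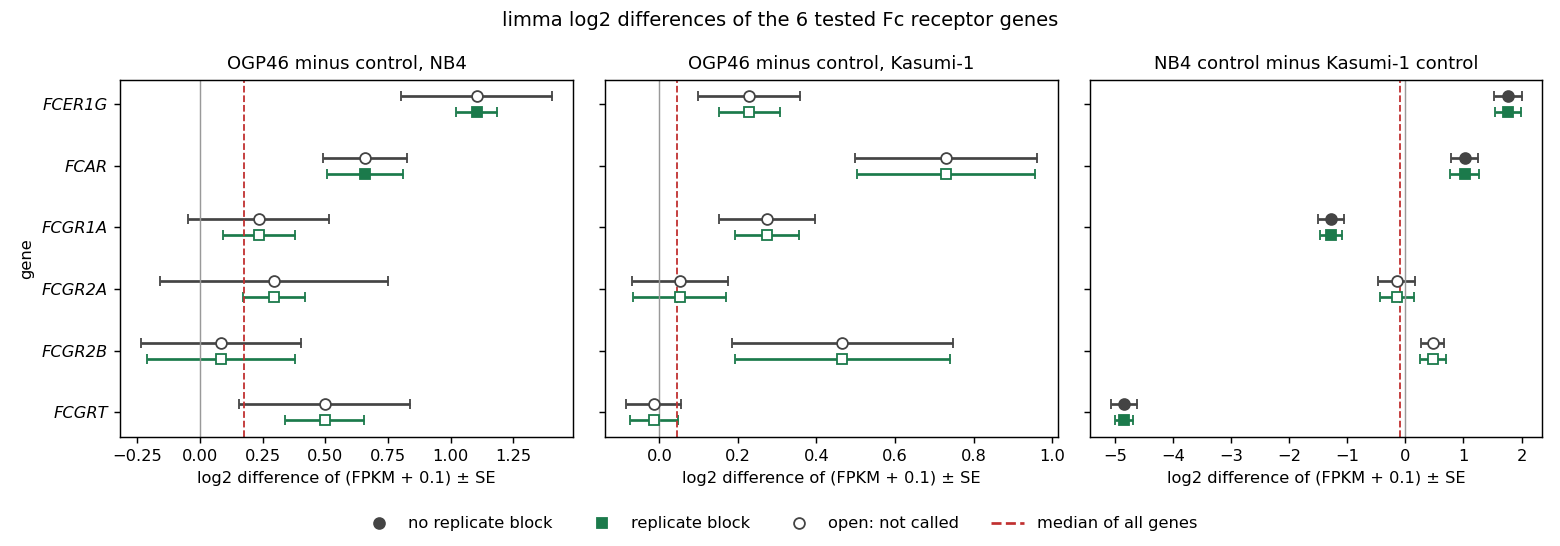
Log2 differences of (FPKM + 0.1) with SE (x axis) for the 6 tested genes (y axis), for OGP46 minus control in NB4 and Kasumi-1 and for NB4 control minus Kasumi-1 control. Grey circles are fits without and green squares with the replicate block, filled symbols are called genes, and the dashed line is the median of all genes. FCER1G had the same value of 1.10 in both NB4 fits but an SE of 0.30 without and 0.08 with the block, and FCGRT stood at −4.85 between the lines.

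Because the gamma chain serves several receptors, its level was set against that of its partners among the 7 genes, the sum of FCAR, FCGR1A and FCGR3A. FCER1G exceeded this sum in every NB4 sample, by a ratio of 5.95, 5.07 and 5.94 in the controls and of 11.4, 8.30 and 8.52 with OGP46. It stayed below the sum in every Kasumi-1 sample, with ratios of 0.819, 0.834 and 0.808 in the controls and of 0.756, 0.839 and 0.728 with OGP46. In NB4 the ratios with OGP46 did not overlap those of the controls, and the smallest p that an exact permutation test of 3 against 3 samples can give is 0.10. TYROBP, the other ITAM adaptor of myeloid cells, stood at 17.2 ± 0.917 FPKM in NB4 controls and at 28.3 ± 2.78 FPKM with OGP46, and at 0.345 ± 0.175 and 0.362 ± 0.184 FPKM in Kasumi-1.

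**Figure D3:**
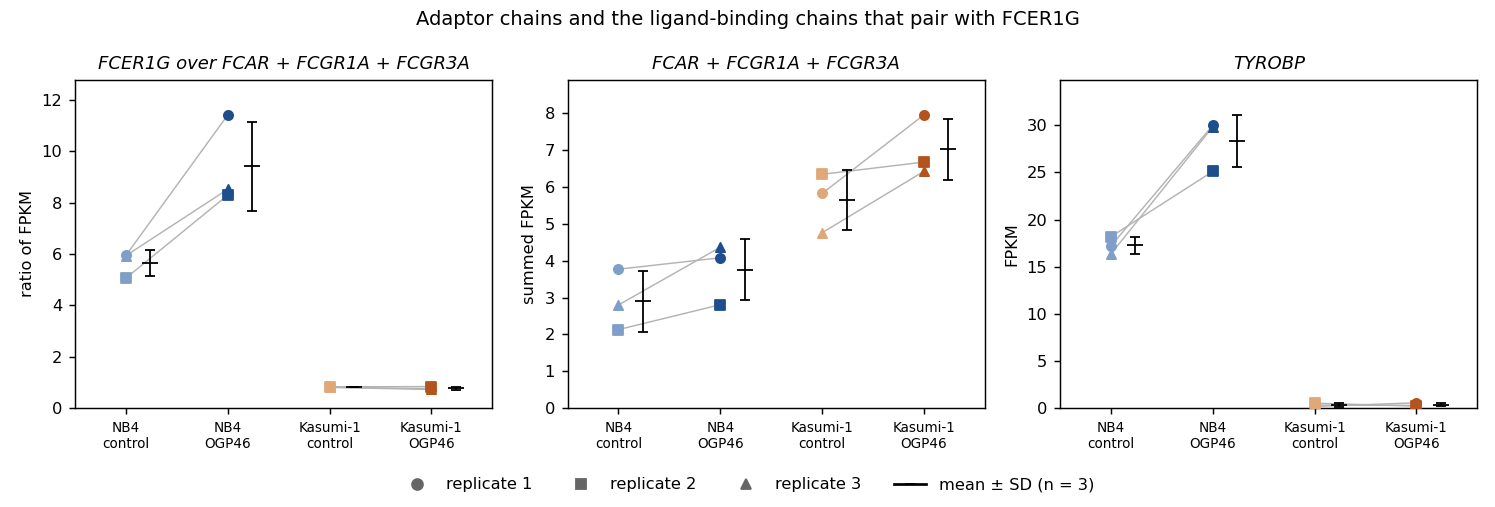
Ratio of FCER1G to the summed FPKM of FCAR, FCGR1A and FCGR3A, that sum, and the FPKM of the adaptor TYROBP (y axes, linear from 0) in the 4 groups (x axes). Points are samples with shapes for replicate numbers, grey lines join the same numbers, and bars are mean ± SD (n = 3). The ratio lay at 5.07 to 11.4 in NB4 and at 0.728 to 0.839 in Kasumi-1.

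The genes around the receptors were described in lists of adaptors, signalling proteins and partners. Of a list of 20 adaptors and adaptor-linked receptors, not all of which use FCER1G or TYROBP, 10 were tested in NB4. Their median log2 difference was 0.65 against 0.18 for all genes. Without the block 3 were called higher (1.45% of all genes), TYROBP (0.71, adjusted p = 0.028), TREM1 (1.32, adjusted p = 0.043) and OSCAR (0.67, adjusted p = 0.046, all by limma). TREM1 amplifies inflammatory signals through TYROBP, and OSCAR is a collagen receptor that signals through FCER1G. With the block 6 were called (5.06% of all genes higher), also LILRA2 (0.83), HCST (0.66), the DAP10 adaptor, and CLEC5A (0.64). With the block and median centring 2 were called, TREM1 and LILRA2. Without the block, 0 of the 10 were called under TPM-like scaling, median centring or quantile normalization.

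In Kasumi-1, none of 11 tested genes of this list was called without the block by limma, where 3 were lower at an unadjusted p (0.566% of all genes). With the block the same number was called lower (0.346% of all genes). CLEC4E (Mincle), a receptor for mycobacterial glycolipids that pairs with FCER1G, stood at 0.944, 1.35 and 1.46 FPKM in the controls and at 0.199, 0.346 and 0.647 FPKM with OGP46. CLEC4E had a log2 difference of −1.52 (adjusted p = 0.00445 by limma with the block and 0.0817 without). CLEC4D, its neighbour and partner, had a log2 difference of −0.90 (adjusted p = 0.0125 with the block) and CD247, the zeta chain, of −0.67 (adjusted p = 0.0228 with the block, both by limma). Between the untreated lines, 4 of 12 genes were called higher and 5 lower in NB4 (22.7% and 29.7% of all genes). TYROBP (5.36), SIRPB1 (2.91), a receptor that signals through TYROBP, and OSCAR (2.02) were higher in NB4 on the log2 scale, and CLEC5A (−4.86), CD247 (−3.76) and LILRA2 (−2.74) were higher in Kasumi-1. CLEC5A had 65.0 ± 13.8 FPKM in Kasumi-1 controls and 2.33 ± 1.14 in NB4 controls.

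Of the 19 tested kinases, adaptors and enzymes downstream of the ITAM, LAT was called higher in NB4 without the block (1.45% of all genes). It is a scaffold protein, and stood at 2.46, 2.61 and 2.27 FPKM in the controls and at 6.10, 4.96 and 4.37 FPKM with OGP46 (log2 difference 1.03, adjusted p = 0.028 by limma). With the block 3 were called (5.06% of all genes higher), also the tyrosine kinases FGR (0.99) and SRC (0.79), and with the block and median centring LAT alone. Without the block, 0 of the 19 were called under TPM-like scaling, median centring or quantile normalization. None of 17 was called in Kasumi-1, with or without the block, by limma, and none at an unadjusted p. Between the untreated lines 9 of 18 were called higher and 3 lower in NB4 (22.7% and 29.7% of all genes). LAT2, the myeloid relative of LAT, had 54.6, 60.3 and 50.3 FPKM in NB4 controls and 0.331 ± 0.299 in Kasumi-1 controls, SYK had 19.1 ± 0.550 and 1.17 ± 0.282, and PRKCD, a kinase of the NADPH oxidase pathway, had 34.4 ± 2.53 and 1.47 ± 0.161. CARD9 was also higher in NB4 (2.56 on the log2 scale), and PLCG1 (−2.65) and VAV3 (−2.48) were lower. GRB2, the gene of this list with the highest mean, had 68.7 ± 4.39 and 85.9 ± 5.47 FPKM.

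The list named inhibitory signalling holds phosphatases, ITIM receptors and other regulators of this signal, and not each of them need act as a brake. Of the 17 tested, SIRPA, the receptor for CD47, was called higher in NB4 without the block (0.67, adjusted p = 0.038 by limma, 1.45% of all genes). With the block PTPRC (CD45, 0.81) and SIGLEC7 (0.85) were called as well (5.06% of all genes higher), and with the block and median centring PTPRC alone. Without the block, 0 of the 17 were called under TPM-like scaling, median centring or quantile normalization. None of 16 was called in Kasumi-1 by limma with or without the block, and none at an unadjusted p. Between the untreated lines 7 were called higher and 4 lower in NB4 (22.7% and 29.7% of all genes). Those included PTPN6 (SHP-1; 1.77), PTPN22 (1.87), SIRPA (1.31) and INPP5D (SHIP1, the phosphatase recruited by FCGR2B; 0.78) among the higher and DOK2 (−2.57) and DOK1 (−0.95) among the lower. PTPN11 (SHP-2), with 41.8 ± 1.77 FPKM in NB4 controls and 34.8 ± 0.560 in Kasumi-1 controls, was not past the fold limit.

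Of the 24 actin genes of phagocytosis, 20 were tested in NB4 and 22 in Kasumi-1, and none was called with OGP46 in either line by limma, with or without the block or at an unadjusted p with the fold limit. In NB4 the largest log2 difference of this list was 0.53, of VASP, an actin polymerization factor. All 20 were above 0, with a median of 0.33 against 0.18 for all genes, and median centring moved the list median to 0.11. The NB4 groups did not overlap for 16 of the 20 (32.7% of all genes in this direction). In Kasumi-1 the list median was 0.055 against 0.046 for all genes. Between the untreated lines 4 of 21 were called higher in NB4 (22.7% of all genes), RAC1 (1.07), a GTPase, ARPC2 (1.25) and ARPC3 (0.66) of the Arp2/3 complex and CFL1 (0.70). The 3 called lower (29.7% of all genes) were MYO10 (−4.11), DOCK2 (−0.96) and GSN (−0.65). Of 10 tested partners of FCGRT, none was called with OGP46 in either line by limma, with or without the block or at an unadjusted p. B2M, the light chain of FcRn, had 493 ± 40.6 FPKM in NB4 controls and 406 ± 21.4 FPKM in Kasumi-1 controls, a log2 difference of 0.28 that was under the fold limit. In Kasumi-1 CD74, the invariant chain, and RAB4A, a GTPase of early endosomes, were higher (−4.36 and −1.87 for NB4 minus Kasumi-1), and STX4 was lower (1.26). CD63, with 41.2 ± 1.66 and 50.9 ± 3.99 FPKM, was under the fold limit.

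Of 18 other Fc receptor genes, 17 were in the files, and 4 were tested in NB4 and 3 in Kasumi-1. TRIM21, the antibody receptor of the cytosol, had the highest level, with 5.74 ± 0.555 and 7.06 ± 0.389 FPKM in NB4 control and OGP46 samples and 5.51 ± 0.620 and 6.73 ± 0.167 FPKM in those of Kasumi-1, and was not called in any comparison. In NB4 none of the 4 was called by limma with or without the block, or at an unadjusted p. In Kasumi-1 the 3 tested genes had a median log2 difference of 0.67 against 0.05 for all genes, and the groups did not overlap for any of them (17.4% of all genes in this direction). None was called without the block by limma, 2 passed at an unadjusted p (0.642% of all genes), and FCGR1B was called with it (0.270% of all genes higher). MS4A2, the beta chain of the IgE receptor, was higher in the NB4 controls than in the Kasumi-1 controls (0.182 ± 0.0663 against 0.0205 ± 0.0189 FPKM, log2 difference 1.22).

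**Figure D4:**
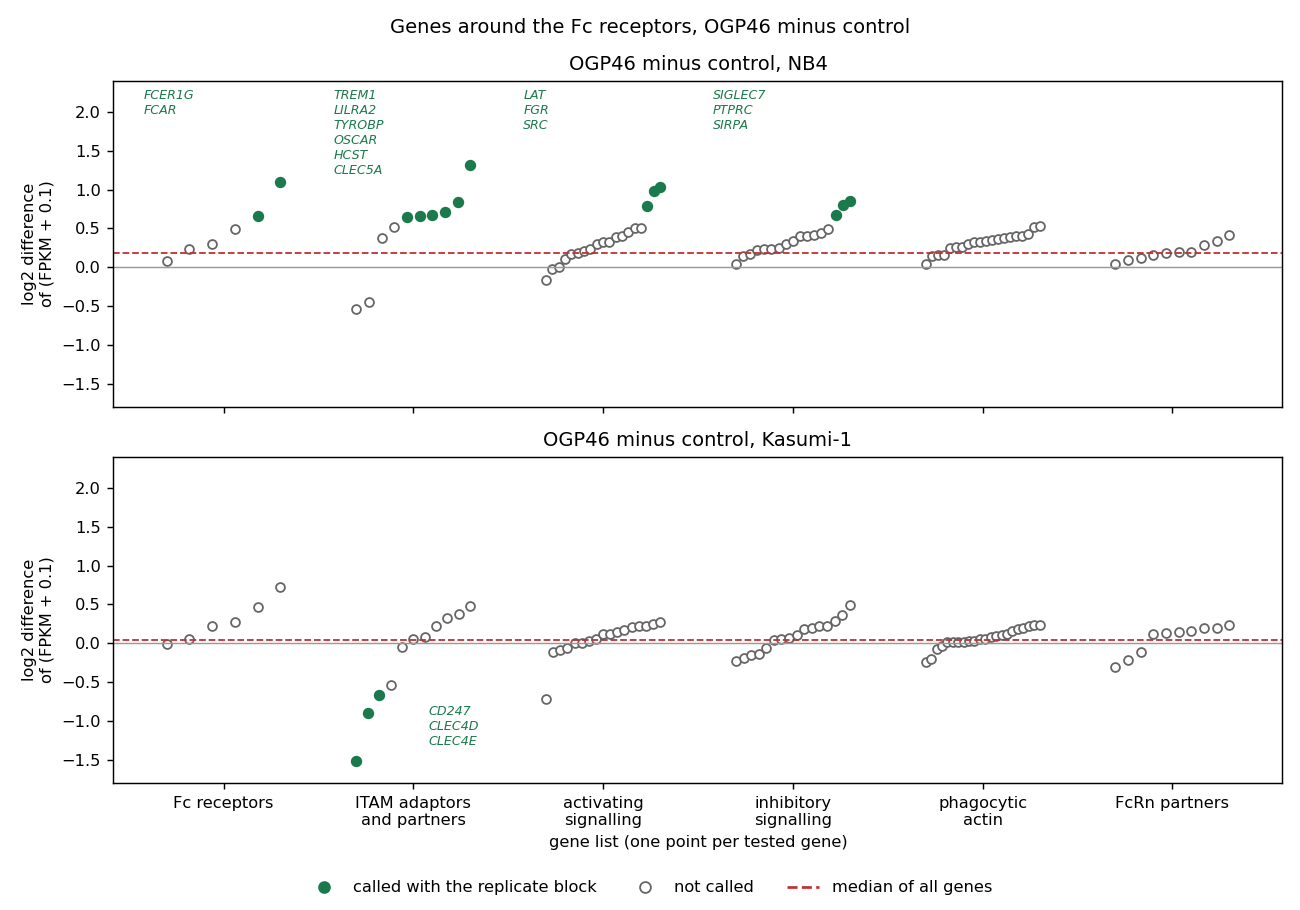
Log2 differences of (FPKM + 0.1), OGP46 minus control (y axis), of each tested gene of the Fc receptors and 5 gene lists (x axis), above in NB4 and below in Kasumi-1. Filled points and the names beside them are genes called with the replicate block, and the dashed line is the median of all genes, 0.18 in NB4 and 0.05 in Kasumi-1. The called genes were higher in NB4, with 5.06% of all genes higher. They were 2 Fc receptor genes, and 6, 3 and 3 genes in the lists of adaptors and partners, activating and inhibitory signalling. In Kasumi-1 the called genes were lower (3 genes, with 0.346% of all genes lower).

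In these bulk samples, fewer cells of a type and less RNA per cell cannot be told apart. Marker genes of myeloid stages moved in the same NB4 samples as FCER1G and FCAR. Of 9 tested monocyte markers, 4 were called higher in NB4 without the block (FCN1, ITGAM, CD68 and ITGAX) and 8 with it (1.45% and 5.06% of all genes). Without the block, 0 of the 9 were called under TPM-like scaling, median centring or quantile normalization. Their median log2 difference without scaling was 1.08. The summed level of the 12 markers listed ranged from 299 to 412 FPKM in controls and from 313 to 411 FPKM with OGP46, most of it LYZ at 318 ± 63.9 and 314 ± 52.3 FPKM, and CD14 had 0.147 ± 0.102 and 0.708 ± 0.396 FPKM. None of 5 primary granule markers was called lower in NB4 by limma without the block, and 1 was at an unadjusted p (1.16% of all genes). With the block 4 were called lower (CTSG, PRTN3, AZU1 and ELANE, 1.15% of all genes). The summed level of the 5 markers ranged from 2605 to 3945 FPKM in controls and from 1586 to 2812 FPKM with OGP46. ELANE stood at 0.504, 3.30 and 14.5 FPKM in the NB4 controls and at 0.321, 0.430 and 1.39 FPKM with OGP46. Its value in NB4 control 3 was 0.962% of the mean of the Kasumi-1 controls, 1505 FPKM, beside the 1.35% for CD34 in the same sample. This mean multiplied by the larger share of CD34 and RUNX1T1 comes to 0.929, 5.57 and 20.3 FPKM in NB4 controls 1, 2 and 3. Each product exceeds the ELANE value of its control. With OGP46 the products are 0.675, 0.230 and 1.24 FPKM, above the ELANE value in sample 1 only. The part of Kasumi-1 signal in the ELANE values, also in pairs 1 and 2, was not tested. With the block and without pair 3 ELANE was called lower (−1.60, adjusted p = 6.0e-05 by limma), as were CTSG, PRTN3 and AZU1 (1.07% of all genes). In Kasumi-1 none of either list was called with or without the block by limma, and none at an unadjusted p. The summed level of the 10 mature neutrophil markers ranged from 54.1 to 112 FPKM in NB4 controls and from 130 to 347 FPKM with OGP46, and in Kasumi-1 from 85.8 to 104 and from 90.1 to 91.2 FPKM. Most of the sum in NB4 was MMP9, a granule protease, at 84.7 ± 32.8 FPKM in controls and 254 ± 117 FPKM with OGP46, higher in each pair by a ratio of 2.57 to 3.19. None of the 4 tested genes of this list was called in NB4 without the block by limma (1 at an unadjusted p, 4.49% of all genes higher). MMP9 was called with it (log2 difference 1.54, adjusted p = 1.1e-06 by limma, 5.06% of all genes higher). In Kasumi-1 the list was mostly CSF3R, the G-CSF receptor (92.5 ± 8.40 FPKM in controls). The part of these markers in the FCER1G and FCAR values was not tested. Of 5 B cell markers, MS4A1 and BLK were at 0 in all samples, and CD79A, CD79B and CD22 were present in every group. Their sum ranged from 8.50 to 14.2 FPKM in NB4 controls, 7.76 to 15.9 with OGP46, 8.50 to 11.4 in Kasumi-1 controls and 7.91 to 8.99 with OGP46, and none of the 3 tested was called with OGP46 in either line by limma, with or without the block or at an unadjusted p. Of 8 natural killer and T cell markers, 3 averaged at least 0.1 FPKM in the NB4 controls and 3 were at 0 in all of them. NKG7 and CD3D stood at 44.2 ± 9.93 and 16.7 ± 3.51 FPKM in the NB4 controls. Between the untreated lines these 2 were called higher in NB4 and CD8A lower (log2 difference −2.59), against 22.7% and 29.7% of all genes. With OGP46, 1 of 4 tested, CD3D, was called higher in NB4 by limma with the block (5.06% of all genes).

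Across the 12 samples, the 3 genes with the pattern most like each receptor with a mean of at least 1 FPKM were found by Pearson's r of log2(FPKM + 0.1) among 9942 genes. They are a description over 4 groups that share cell line and treatment. FCER1G was most like FRY (0.996), TRIB2 (0.995) and ATP2B1 (0.995), and FCGRT was most like CSF3R, FXYD5 and PLD3 (0.996 each). FCGR1A was most like ATP2C1, SARAF and USO1 (0.979 each). For FCGR2A the values were lower, with IRAK3 (0.954), NFKB2 (0.949) and MCTP2 (0.938).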

How the data were processed

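mRNA of 12 samples, 3 per group, was sequenced after poly(A) selection with a stranded kit. The authors deposited 1 FPKM value per gene symbol and sample, and their processing notes name Trimmomatic, HISAT2, Cufflinks, HTSeq and the build hg38, with versions not given in the sources used here. Of the values, 632 lie above 0 and below 1e-04, so fragments were shared out by an estimate, and the depth is unknown. Samples were grouped by their labels, and 27 symbols turned into dates were left out. The incubation is 48 h in the labels and the methods, and the legend of the study's figure on this assay gives a longer time.

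The log2(FPKM + 0.1) values were tested with limma version 3.58.1 (R version 4.3.3), with a mean-variance trend, for genes whose mean over the samples compared reached 0.1 FPKM, two-sided, with Benjamini-Hochberg adjustment over all genes tested. A gene was called at an adjusted p below 0.05 and a log2 difference of at least 0.58. The interaction needed no minimum. The scripts were tested on simulated data. Nothing in the labels says that replicates came from separate cultures. The legend of the study's figure on this assay calls its figures representative of independent experiments, without linking these to the deposited samples. The p-values measure the spread between these samples, which may be technical. Same-numbered samples of 1 line deviated together for each number, though only by a small margin for number 3 of NB4. The block within a line rests on this check. Same-numbered samples across the lines did not deviate together.

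The members and gene lists were chosen with earlier results of these data known. Named are all members, up to 6 genes per list and comparison that were called with or without the block, and the 2 genes of each list with the highest mean. A gene of the list of activating signalling is not reported here. RPL3L and RPL10L were named after their values were seen. Positions are from GENCODE release 29 and promoters from RefSeq. Alternatives were other pseudocounts (1 and 0.01), filters, scalings, a fit without trend, 1 model of the 12 samples, fits lacking any 1 sample, the replicate block, and the block lacking NB4 pair 3 or Kasumi-1 pair 2.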

Additional observations from a re-analysis of the deposited data

Results flagged for a closer look

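The OGP46 effect differed between NB4 and Kasumi-1, as NB4 minus Kasumi-1 on the log2 scale, for 5 genes of the receptors and pathway lists by the interaction test of limma with the replicate block and for none of them without it. FCER1G differed by 0.87 (adjusted p = 0.427 by limma without and 0.0061 with the block). CLEC5A differed by 0.57 (0.73 and 0.04997 by limma), VASP by 0.56 (0.0976 and 0.0211) and RAC2 by 0.41 (0.176 and 0.04997). CSK, the kinase that holds back SRC family kinases, differed by 0.46 (adjusted p = 0.328 and 0.0311 by limma), and all 3 pairs were higher with OGP46 in NB4 and all 3 lower in Kasumi-1. In this direction 1.81% of all genes were called with the block. With the block and median centring 3 of the 5 were called, FCER1G (0.73, adjusted p = 0.0092 by limma), CSK (0.32, 0.0492) and VASP (0.42, 0.0176), and CLEC5A (0.42, 0.0567) and RAC2 (0.26, 0.0756) were not. With pair 3 of NB4 or pair 2 of Kasumi-1 left out of the block fit, FCER1G alone of the 5 was called (adjusted p = 0.023 and 0.0306 by limma). For 4 further genes the pairs moved in opposite directions in the same way, and the interaction was not called: LAT2 (1.22, adjusted p = 0.0951 by limma with the block), GSN (0.35, 0.1001), CFL1 (0.23, 0.218) and RAB4A (0.41, 0.0937). LAT2 lies at 0.331 ± 0.299 FPKM in the Kasumi-1 controls, where control 2 alone stood at 0.667 FPKM. With median centring the NB4 values of CFL1, GSN and RAB4A turned negative (−0.06, −0.08 and −0.03), and that of CSK was 0.0134.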

How the results depend on the processing

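For OGP46 in NB4, 170 genes were called higher and 13 lower. These counts were 111 and 6 with a pseudocount of 1, 4 and 0 with no filter, 0 and 0 with TPM-like scaling, with median centring and with quantile normalization, 3 and 1 without a variance trend, 393 and 87 in 1 model of the 12 samples, 595 and 135 with the replicate block, and 532 and 126 with the block and pair 3 left out. With a minimum mean of 1 FPKM 7 were lower, and with the block and median centring 203 were lower. Leaving out 1 sample gave 0 to 368 higher and 0 to 28 lower, with 368 and 28 without OGP46 sample 2. Members called higher in NB4 were 0, and 2 in 1 model of the 12 samples and with the replicate block, 3 with the block and pair 3 left out, 1 with the block and median centring, and 0 to 1 with 1 sample left out. FCER1G and FCAR were also called in the model of 12 samples (adjusted p = 0.0195 and 0.0416 by limma).

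For Kasumi-1, 2 genes were called higher and 2 lower. The counts were 0 and 2 with a pseudocount of 1, 0 and 0 with no filter, without a variance trend and in 1 model of the 12 samples, 13 and 11 with a minimum mean of 1 FPKM, 13 and 5 with TPM-like scaling, 4 and 14 with median centring, 3 and 8 with quantile normalization, 32 and 41 with the replicate block (31 and 41 with FCGR1A and FCGR1B summed), 26 and 67 with the block and median centring, and 69 and 43 with the block and pair 2 left out. Leaving out 1 sample gave 0 to 8 higher and 0 to 7 lower. Members called stayed at 0, other than 1 with the block and pair 2 left out. The interaction was called for 0 genes in each direction, for 14 higher with a pseudocount of 1, for 223 higher and 14 lower with the replicate block, for 97 and 47 with the block and median centring, for 86 and 8 with the block and NB4 pair 3 left out and 20 and 3 with Kasumi-1 pair 2 left out, and for 0 to 1 in each direction with 1 sample left out. The count of members was 1 with the block, with or without median centring or either pair. Between the untreated lines, where same-numbered samples did not deviate together (correlations −0.05 to 0.02), the replicate block left 2792 higher and 3674 lower against 2790 and 3659, and 1 member in place of 2 was called higher with a pseudocount of 1 and with a minimum mean of 1 FPKM, where FCAR was not tested.

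Signs turned only for differences that were not called. In NB4, FCGR2B went from 0.08 to −0.14 with median centring, with or without the block, to −0.12 with the block and pair 3 left out, to −0.07 and −0.0884 without OGP46 samples 1 and 3 (range with 1 sample left out −0.0884 to 0.4127), and FCGR2A from 0.30 to −0.13 without control 2 (−0.13 to 0.7557). In Kasumi-1, FCGRT went from −0.01 to 0.0044 with TPM-like scaling, 0.0551 with the block and pair 2 left out and 0.0594 without control 2 (−0.0533 to 0.0594), and FCGR2A from 0.05 to −0.0147 with median centring, with or without the block, −0.0083 with quantile normalization, −0.0222 without control 3 and −0.0148 without OGP46 sample 3 (−0.0222 to 0.1182). For the interaction, FCAR went from −0.07 to 0.0870 with a pseudocount of 1, 0.0174 with the block and NB4 pair 3 left out, 0.03 without NB4 control 3 and 0.11 without Kasumi-1 control 1 (−0.2812 to 0.11), FCGR1A from −0.04 to 0.21, 0.22, 0.08 and 0.06 without NB4 control 1, NB4 OGP46 sample 2, Kasumi-1 control 3 and Kasumi-1 OGP46 sample 1 (−0.2466 to 0.22), and FCGR2A from 0.24 to −0.19 without NB4 control 2 and −0.04 without NB4 OGP46 sample 3 (−0.19 to 0.7036). Between the lines, FCGR2A went from −0.15 to 0.0445 with TPM-like scaling, 0.14 with quantile normalization and 0.28 without NB4 control 2 (−0.3808 to 0.28). The cause of these shifts was not tested. The sum of FCGR1A and FCGR1B and the fits with a pair left out, which rest on 2 pairs in that line, were chosen after seeing the data. Read depth is unknown, so that levels near 0, as of FCGR2B and FCGR3A, have no detection limit here.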
